A study of Mus musculus with 12 samples.

Results

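The growth hormone axis of the hepatocyte and enzymes that depend on it were followed through 10 genes. They are the receptor *Ghr*, the signal carrier *Stat5b*, the feedback inhibitor *Socs2*, the repressor *Bcl6*, the secreted products *Igf1* and *Igfals*, and the enzymes *Cyp4a12a*, *Cyp4a12b* and *Hsd3b5* and the binding protein *Selenbp2*. All array probes carrying 1 of these gene symbols were taken where the detection p (the rank of a probe's signal against the negative controls of its own array) was at most 0.05 on 1 or more arrays. This gave 12 probes of 9 genes, out of 20561 kept probes and 10838 named genes. Gene names were at hand only for probes of the value table deposited by the authors. Every probe named in this way passed the limit, so the limit removed none of them. Any probe of these genes outside that table would have gone unrecognised. *Stat5b* was not analysed here, because no probe named in this way carried its symbol. Of these probes, 10 were detected on all 12 arrays, and those of *Cyp4a12a* and *Cyp4a12b* on 11. The genes were chosen by earlier readings of these same arrays, above all the log2 signals of the enzymes on AAV-Cre replicate 3, which read apart. The readings of that array are therefore given without a test, and every group difference of a member probe is also given without it. For other genes the difference without it is given only where stated.

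The arrays held RNA of hepatocytes purified on a density gradient from mice homozygous for floxed *Gata4* and *Gata6*, of strain C57BL/6 x 129Sv and 2.5 to 4.5 months old. All mice had been given adeno-associated virus serotype 8 by vein 2 weeks earlier. The virus carried, under the hepatocyte-active Tbg promoter, either Cre recombinase (AAV-Cre, 6 arrays) or green fluorescent protein (AAV-GFP, 6 arrays). The comparison asks which hepatocyte transcripts differ once both GATA factors are targeted. The control mice thus shared the floxed alleles and the viral injection, and excision was limited to cells in which the Tbg promoter is active. The labels give neither the sex of the mice, nor the chip of each array, nor a statement that each array is a separate animal. The p-values measure the spread between these arrays only.

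In liver, pituitary growth hormone binds its receptor, which activates the kinase JAK2 and the transcription factor STAT5B. STAT5B then turns on *Igf1*, *Igfals* and the inhibitors *Socs2* and *Cish*. Male mice release the hormone in pulses and females almost without pause, and this difference sets much of the sex bias of mouse liver, including male-biased *Hsd3b5* and *Cyp4a12a* and female-biased *Cyp2b9*.

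Median exported signals ran from 215 to 288 per array, and 14318 to 16381 probes were detected. *Hnf4a*, a defining hepatocyte factor, read 13.58 to 14.30 on the log2 scale over the arrays (6 of 9 listed hepatocyte markers were measured). Among markers of other cells, the macrophage gene *Clec4f* read 8.32 to 10.44 and the endothelial gene *Clec4g* 10.70 to 13.07. In bulk RNA, fewer cells of a type and less RNA per cell cannot be told apart. The probes of the floxed genes could not serve as a check of excision on the arrays labelled AAV-Cre. The *Gata4* probe was detected on 0 of 6 AAV-GFP and 1 of 6 AAV-Cre arrays, so it could not have shown a loss. The more intense *Gata6* probe read 11.59 ± 0.37 (SD, n = 6) on the arrays labelled AAV-Cre against 9.88 ± 0.23 on AAV-GFP arrays, a rise of 1.71 (limma, adjusted p = 3.77e-04). The place of this probe relative to the floxed part was not known here. AAV-Cre below always means the arrays so labelled.

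AAV-Cre replicate 3 stood apart from the other 11 arrays in more than the enzymes. Its *Xist* value, from the RNA of the silenced X chromosome, was 13.31 on the log2 scale, against 7.70 to 7.95 elsewhere, where that probe was not detected. The Y-linked *Eif2s3y*, *Kdm5d* and *Uty* read 7.75, 7.98 and 7.92 there, below ranges of 11.53 to 11.89, 8.61 to 9.14 and 8.23 to 8.66. This array lay at least 2-fold below every other array at 38 probes and at least 2-fold above at 50. Its summed level of 5 measured erythroid markers, of 11 listed, was 14.70, against 12.99 to 14.12 on AAV-GFP arrays and 12.89 to 13.41 on the other AAV-Cre arrays, although the erythroid gene *Alas2* was lowest there at 9.65. The part of these features in the results was not tested.

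The stretches of 250 bases before the start sites of 3 members are shown because they set *Igfals*, which STAT5 is known to activate, and *Bcl6*, which it is known to repress, beside *Hsd3b5*, an enzyme of the group. They come from the RefSeq table of promoters (build GRCm38.p6), which held 12 entries for 7 of the 10 members and none for *Socs2*, *Cyp4a12a* and *Cyp4a12b*. Capitals mark each match to TTCNNNGAA, the palindrome that STAT proteins bind, which reads the same on both strands. *Bcl6* is chr16:23981284-23981533 on the minus strand, *Igfals* chr17:24877981-24878230 on the plus strand and *Hsd3b5* chr3:98645535-98645784 on the minus strand.
Bcl6: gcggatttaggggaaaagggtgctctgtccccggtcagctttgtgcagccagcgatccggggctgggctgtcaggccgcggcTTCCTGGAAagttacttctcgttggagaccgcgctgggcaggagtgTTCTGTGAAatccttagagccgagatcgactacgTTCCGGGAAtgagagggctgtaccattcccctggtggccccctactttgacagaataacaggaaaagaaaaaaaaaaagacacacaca
Igfals: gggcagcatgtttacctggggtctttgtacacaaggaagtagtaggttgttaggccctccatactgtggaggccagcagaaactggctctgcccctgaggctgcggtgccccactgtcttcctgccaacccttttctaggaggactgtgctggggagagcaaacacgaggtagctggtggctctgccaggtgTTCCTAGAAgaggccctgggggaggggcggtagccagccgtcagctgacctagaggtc
Hsd3b5: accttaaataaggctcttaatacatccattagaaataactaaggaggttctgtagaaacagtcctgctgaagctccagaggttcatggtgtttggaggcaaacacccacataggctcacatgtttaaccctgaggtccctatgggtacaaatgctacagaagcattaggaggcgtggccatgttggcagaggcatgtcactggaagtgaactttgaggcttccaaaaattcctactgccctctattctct
The *Bcl6* stretch held 3 matches, the *Igfals* stretch 1 and the *Hsd3b5* stretch 0. For genes with several start sites, the stretch shown was picked for having the most matches, so these counts lean high for *Bcl6* and *Igfals*. The other *Bcl6* stretch held 1 match, and the other *Igfals* stretches 1 and 0. Over the members, 4 of 12 stretches held a match, all of *Bcl6* or *Igfals*, beside 7.02% of all 32851 promoters. GATAA, the core of the GATA motif searched on both strands, was in 0 of the 12 and in 22.6% of all. These are matches of letters in short windows and say nothing of binding.

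Among the 4 enzymes and binding proteins, the estimated group difference was below 0 for each gene, and the level of *Cyp4a12b* separated the groups without overlap. No member probe passed the test over all probes (0 of 12 at a limma adjusted p under 0.05, beside 0.165% of the 20561 kept probes). Of the 34 kept probes called, 5 were higher (0.0243% of kept probes) and 29 lower. Without AAV-Cre replicate 3 the member count was again 0 of 12, beside 0.136% of kept probes. The probes of *Cyp4a12b* and 1 of *Igf1* did not overlap between groups (2 of 12, beside 0.501% of kept probes, and 0.686% without replicate 3). By an exact two-sided permutation test of each probe alone, unadjusted, 8 of 12 had a p under 0.05, beside 5.18% of kept probes, and 5 of 12 after median scaling in place of quantile normalization. Without AAV-Cre replicate 3 this was 6 of 12, beside 4.78%. Since the members were named with these arrays in view, none of these shares is independent evidence about the pathway.

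**Figure D1:**
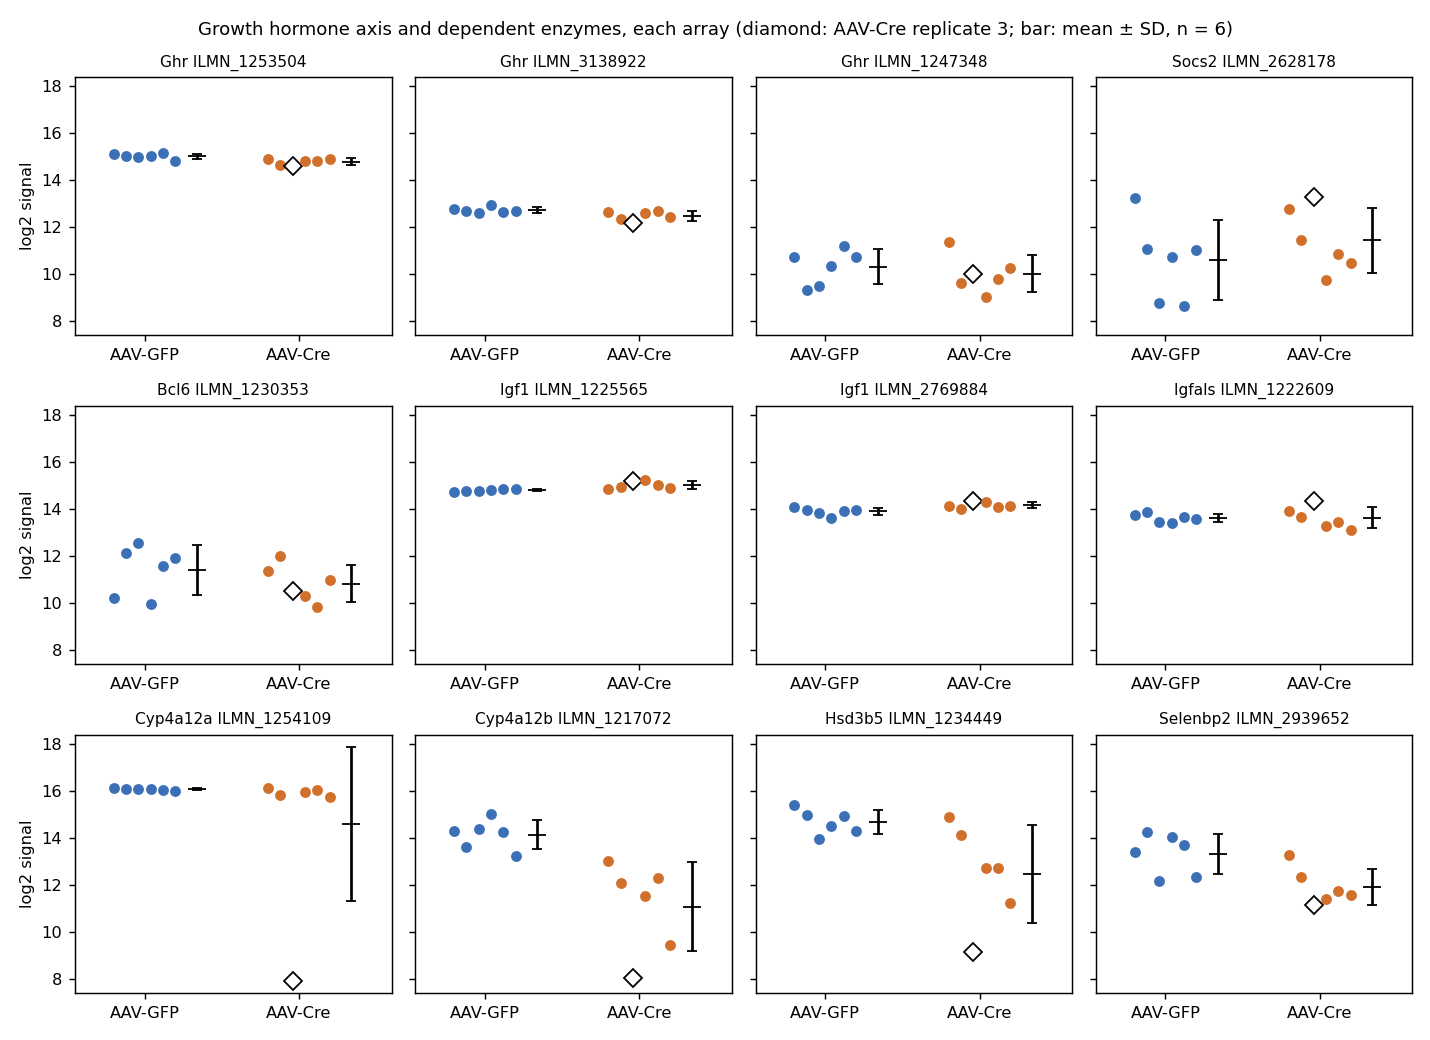
Log2 quantile-normalized signal of the 12 member probes on each array, by group (AAV-GFP blue, AAV-Cre orange, AAV-Cre replicate 3 as an open diamond), with mean ± SD of each group of 6. The diamond lies at 7.89 for *Cyp4a12a*, 8.04 for *Cyp4a12b* and 9.11 for *Hsd3b5*, while the *Igf1* and *Ghr* probes of high signal hardly spread.

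*Cyp4a12b* and its neighbour on chromosome 4, *Cyp4a12a*, encode closely similar P450 enzymes that hydroxylate fatty acids such as arachidonic acid, and whether each probe reads only its own gene's RNA was not tested. *Cyp4a12b* had a lowest, median and highest log2 signal of 13.22, 14.26 and 14.99 on the AAV-GFP arrays, and of 8.04, 11.80 and 12.98 on the AAV-Cre arrays. The lowest AAV-GFP array thus lay above the highest AAV-Cre array. The means were 14.12 ± 0.62 and 11.05 ± 1.90 (SD, n = 6), a difference of -3.06 (SE 0.70), or 8.36-fold lower, at an adjusted p of 0.179 and an exact permutation p of 0.00216, the smallest this design can give. Without AAV-Cre replicate 3 the groups still did not overlap, and the difference was -2.46 (95% confidence interval -3.58 to -1.34), or 5.50-fold lower (adjusted p = 0.128, exact permutation p = 0.00216). The other AAV-Cre arrays themselves ran from 9.44 on replicate 6 to 12.98 on replicate 1. On AAV-Cre replicate 3 the probe was not detected (detection p 0.136), at least 33.2-fold below the median of the other arrays.

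For *Cyp4a12a*, 11 arrays lay close together and 1 far away. The AAV-GFP arrays read 15.99 to 16.11, with a median of 16.06, and the AAV-Cre arrays other than replicate 3 read 15.74 to 16.10. Replicate 3 read 7.89 and was not detected (detection p 0.392), at least 234-fold below the median of the others. Its exported signal there was 236, against 49036 to 70827 on the other arrays. These other signals lay near the top of the measured range, since the highest signal of any probe was 70942 on the array where it was lowest. This limits the difference that can be seen among those 11 arrays. With all arrays the difference was -1.47 (SE 1.16, adjusted p = 0.9998, exact permutation p = 0.0476). Without replicate 3 it was -0.13 (95% confidence interval -0.29 to 0.03, exact permutation p = 0.0758), so 1 array carried most of the difference as measured. Within the narrow range of the others, AAV-Cre replicates 2, 4 and 6 read 15.80, 15.96 and 15.74, below the lowest AAV-GFP array. AAV-Cre replicates 1 and 5 (16.10 and 16.02) lay among the AAV-GFP arrays. Over the 11 arrays the Pearson correlation of *Cyp4a12a* with *Cyp4a12b* was 0.82.

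*Hsd3b5*, a male-biased steroid-metabolising enzyme of the 3-beta-hydroxysteroid dehydrogenase family, had a lowest, median and highest log2 signal of 13.93, 14.71 and 15.38 on AAV-GFP arrays and of 9.11, 12.71 and 14.89 on AAV-Cre arrays. AAV-Cre replicates 1 and 2 lay among the control arrays at 14.89 and 14.13, and the other 4 lay below all of them. The difference was -2.20 (SE 0.75, adjusted p = 0.667, exact permutation p = 0.0216), or 4.59-fold lower. Without replicate 3, which read 36.2-fold below the median of the others but was detected, it was -1.53 (95% confidence interval -2.67 to -0.39, adjusted p = 0.784, exact permutation p = 0.0346), or 2.89-fold lower.

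*Selenbp2*, a cytosolic protein first known for binding acetaminophen in mouse liver, had a lowest, median and highest log2 signal of 12.16, 13.53 and 14.22 on AAV-GFP arrays and of 11.13, 11.65 and 13.24 on AAV-Cre arrays. The groups overlapped, with AAV-GFP replicates 3 and 6 down at 12.16 and 12.32 and AAV-Cre replicate 1 up at 13.24. The difference was -1.40 (SE 0.41, adjusted p = 0.447, exact permutation p = 0.0216), or 2.63-fold lower. It was -1.24 without AAV-Cre replicate 3 (95% confidence interval -2.15 to -0.34, adjusted p = 0.766, exact permutation p = 0.0411). That array, at 11.13, was the lowest but only 2.28-fold below the median of the others.

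*Hsd3b5*, *Cyp4a12b* and *Selenbp2* ordered the AAV-Cre arrays in a like way. Replicate 1 was the highest AAV-Cre array for all 3, and replicate 3 the lowest. Replicate 6 came next above replicate 3 for *Hsd3b5* (11.21) and *Cyp4a12b* (9.44), whereas for *Selenbp2* replicate 4 did (11.40). The spread within the AAV-Cre group was therefore not that of a single array against 5 alike ones.

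**Figure D2:**
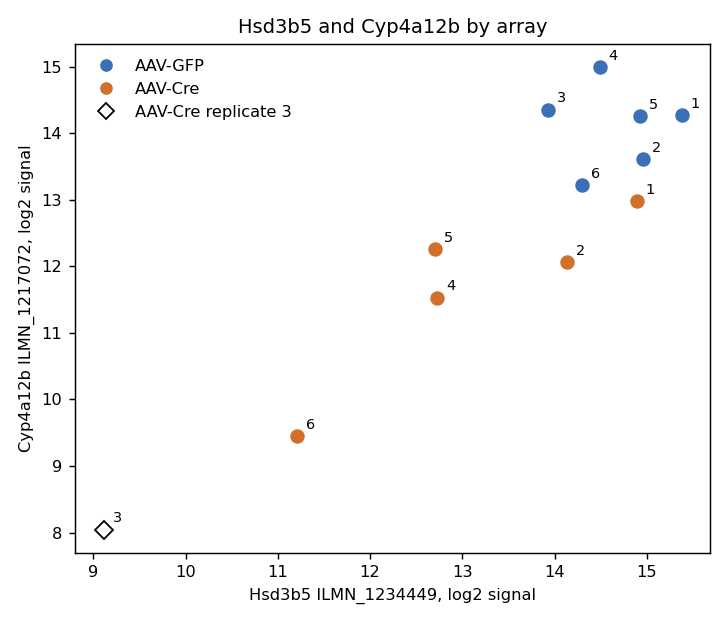
Log2 signal of *Cyp4a12b* (vertical axis) against *Hsd3b5* (horizontal axis) on each of the 12 arrays, numbered by replicate, AAV-GFP in blue and AAV-Cre in orange with replicate 3 as an open diamond. AAV-GFP arrays sit at the upper right, and AAV-Cre arrays run from replicate 1 (14.89 and 12.98) down to replicate 6 (11.21 and 9.44) and replicate 3 (9.11 and 8.04).

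Of the secreted products, *Igf1* lay slightly higher on the AAV-Cre arrays and *Igfals* had no settled direction. *Igf1*, the growth factor that carries much of the hormone's action on the body, had 2 probes. The more intense one read 14.71 to 14.83 on AAV-GFP arrays (median 14.78) and 14.84 to 15.20 on AAV-Cre arrays (median 14.96), without overlap. The difference was 0.22 (SE 0.07), or 1.17-fold higher (adjusted p = 0.613, exact permutation p = 0.00216), and without AAV-Cre replicate 3 it was 0.19 (95% confidence interval 0.03 to 0.35, exact permutation p = 0.00216). The difference was small, but larger than the AAV-GFP SD of 0.04 and the AAV-Cre SD of 0.15. The second *Igf1* probe read 13.61 to 14.08 on AAV-GFP and 13.99 to 14.33 on AAV-Cre arrays, which overlapped. Its difference was 0.28 (SE 0.08, adjusted p = 0.515, exact permutation p = 0.00649), and 0.24 without replicate 3 (exact permutation p = 0.0152). Both probes leaned the same way and neither passed the test over all probes.

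*Igfals* encodes the acid-labile subunit, which holds IGF1 in its large complex in blood. It read 13.37 to 13.86 on AAV-GFP arrays (median 13.60) and 13.09 to 14.32 on AAV-Cre arrays (median 13.55). The groups overlapped nearly throughout, and the highest reading was that of AAV-Cre replicate 3. The difference was 0.02 (SE 0.18, 95% confidence interval -0.37 to 0.40), and -0.12 without that array (-0.43 to 0.18). The direction thus turned with 1 array, and both intervals include 0.

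The receptor *Ghr* had 3 probes. The most intense read 14.81 to 15.12 on AAV-GFP arrays (median 15.02) and 14.57 to 14.90 on AAV-Cre arrays (median 14.80), a difference of -0.23 (SE 0.08, adjusted p = 0.634, exact permutation p = 0.0108) and of -0.19 without AAV-Cre replicate 3 (exact permutation p = 0.0216). The second read 12.57 to 12.92 and 12.14 to 12.65, a difference of -0.24 (SE 0.09, adjusted p = 0.811, exact permutation p = 0.0303) and of -0.18 without replicate 3 (exact permutation p = 0.0519). These were 1.17-fold and 1.18-fold lower with overlapping groups, and replicate 3 was the lowest array on each. The third probe read 9.32 to 11.19 and 9.02 to 11.36, with a difference of -0.29 (SE 0.38, exact permutation p = 0.509) that was well within its spread. Without replicate 3 that difference was again -0.29.

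*Socs2*, which STAT5 induces and which in turn damps receptor signalling, varied more within groups than between them. It read 8.64 to 13.21 on AAV-GFP arrays (median 10.87) and 9.73 to 13.28 on AAV-Cre arrays (median 11.15). AAV-Cre replicate 3 was the highest of all arrays, 5.38-fold above the median of the others, and AAV-GFP replicate 1 came just below it. The difference was 0.85 (SE 0.77, 95% confidence interval -0.81 to 2.50, exact permutation p = 0.344) and 0.47 without replicate 3.

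*Bcl6* encodes a transcriptional repressor that growth hormone lowers and that holds down female-biased genes in male mouse liver. It read 9.94 to 12.55 on AAV-GFP arrays (median 11.72) and 9.81 to 12.00 on AAV-Cre arrays (median 10.73). The arrays of both groups covered nearly the same range. The difference was -0.56 (SE 0.47, 95% confidence interval -1.57 to 0.45, exact permutation p = 0.314) and -0.50 without AAV-Cre replicate 3, which read 10.50.

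**Figure D3:**
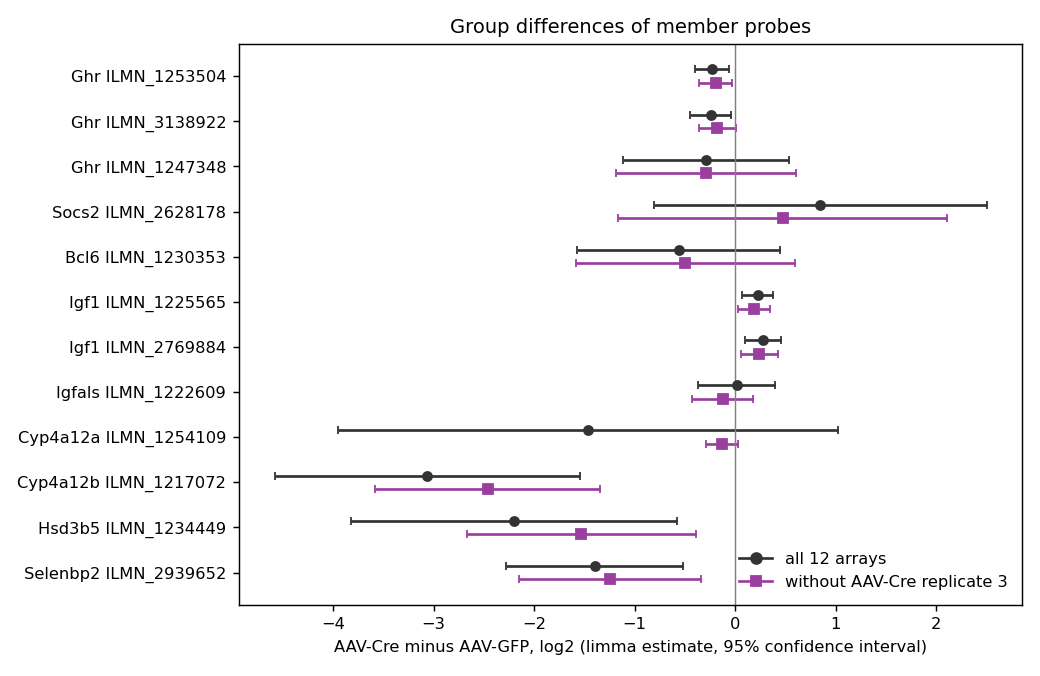
AAV-Cre minus AAV-GFP in log2 units for each member probe, with limma's 95% confidence interval, over all 12 arrays (circles) and without AAV-Cre replicate 3 (squares). Leaving that array out moves *Cyp4a12a* from -1.47 to -0.13 and *Hsd3b5* from -2.20 to -1.53, and hardly moves *Ghr*, *Igf1* and *Selenbp2*.

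Over the 9 genes, by the most intense probe of each, the median difference was -0.56, with 3 above 0 and 6 below, and -0.19 without AAV-Cre replicate 3. The median over all kept probes was 0.00 in both fits. None of the other genes of the pathway passed the test either. Of 11 signalling partners, 9 were measured and 0 called, with a median difference of 0.01. *Stat3*, which many cytokines activate beside growth hormone, read 0.39 higher (SE 0.18, adjusted p = 0.980), and *Irs2*, an adaptor of insulin and IGF signalling, 0.41 (SE 0.20, adjusted p = 0.996). *Jak2*, the kinase bound to the receptor, read -0.08 (SE 0.07). *Egfr* read 0.25 (SE 0.18) by its most intense probe, while its other probes ran from -0.15 to 0.16.

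All 7 feedback inhibitors and IGF binding proteins listed were measured, with 0 called and a median difference of 0.18. *Socs3*, an inhibitor of cytokine receptors, differed by 0.78 (SE 0.38, adjusted p = 0.9998), *Igfbp1* by 0.40 (SE 0.24) and *Igfbp3*, which carries IGF1 in blood, by -0.13 (SE 0.07). *Socs1* was detected on 1 of 12 arrays. *Cish*, the inhibitor most directly induced by STAT5, ran from 8.34 to 12.28 on AAV-GFP arrays and from 9.97 to 11.43 on AAV-Cre arrays. *Cish* was named after its values were seen.

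Of 9 transcription factors tied to sex-biased liver genes, 7 were measured and 0 called, and their median difference of 0.36 was 0.12 without AAV-Cre replicate 3. *Foxa1*, a pioneer factor, differed by 0.52 (SE 0.18, adjusted p = 0.722), *Cebpb* by 0.36 (SE 0.15, adjusted p = 0.920) and *Tox* by 0.45 (SE 0.31). *Cux2*, a repressor that female mice express in liver far above males, was detected by its more intense probe on AAV-Cre replicate 3 alone, at 9.88 against 7.75 to 8.13 on the other arrays. Its second probe read 8.20 there, within the 7.85 to 8.33 of the other arrays. That probe was detected on 3 of 6 AAV-GFP and 1 of 6 AAV-Cre arrays.

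Other male-biased genes of mouse liver mostly read low on AAV-Cre replicate 3, and over the other arrays their group differences centred near 0. Of 25 listed, 19 were measured and 0 called, with 5 above 0 and 14 below. Their median difference of -0.28 became 0.00 without that array, which is the value of *Cyp2d9*. On the other arrays the exported signals of *Cyp2d9* (65176 to 71538) lay at the top of the measured range, which limits the difference that can be seen there. Signals of 7 of the 19 came within 10% of that range on some array. For the remaining 12 genes, split off after the values were seen, the medians were -0.15 and, without replicate 3, 0.00. Replicate 3 was the lowest of all arrays for 15 of the 19, beside 8.51% of kept probes, and its median deviation from the other arrays was -1.82. *Cyp2d9*, a steroid hydroxylase, read 12.70 there and 16.05 to 16.12 elsewhere. *C6*, a complement component, read 8.36 against 12.61 to 14.10, and *Gstp1*, a glutathione transferase, 13.25 against 15.96 to 16.11. These 3 were named after their values were seen. *Cyp2u1*, another fatty acid hydroxylase, read 9.19 to 9.69 on AAV-GFP and 8.10 to 9.08 on AAV-Cre arrays without overlap by its more intense probe. The difference was -0.76 (SE 0.16, adjusted p = 0.102) and -0.65 without replicate 3 (adjusted p = 0.122). On replicate 3, at 8.10, that probe was not detected (detection p 0.0769). The second *Cyp2u1* probe, detected on 2 of 6 AAV-GFP and 1 of 6 AAV-Cre arrays, overlapped between groups with a difference of -0.06 (SE 0.07). *Nudt7*, a peroxisomal hydrolase of coenzyme A, differed by -0.27 (SE 0.13) and *Mup2*, a major urinary protein, by -0.16 (SE 0.10). Both genes were among the 7 with signals near the top of the range.

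Of 35 female-biased genes, 21 were measured and 1 was called. *Cyp2b9*, a P450 enzyme of female mouse liver, read 8.28, 9.50 and 10.45 (lowest, median, highest) on AAV-GFP arrays and 11.21, 12.27 and 14.64 on AAV-Cre arrays, without overlap. It rose by 2.91 (SE 0.51, adjusted p = 0.0421) and by 2.46 without AAV-Cre replicate 3 (adjusted p = 0.0188). The call was lost with the replicate number as a block, with normexp background correction, with median scaling, without the detection filter, and when any 1 AAV-GFP array or AAV-Cre replicate 4, 5 or 6 was left out. Of the 21 genes, 20 lay above 0, with a median difference of 0.65 that was 0.25 without replicate 3. That array was the highest of all for 14 of the 21, beside 8.73% of kept probes, at a median deviation of 2.18. *Vldlr*, a lipoprotein receptor, differed by 0.91 (SE 0.27, adjusted p = 0.481), *Cyp17a1*, a steroid hydroxylase, by 0.95 (SE 0.43) and *Fmo2* by 0.19 (SE 0.09). Without replicate 3 these differences were 0.77, 0.69 and 0.18. The sulfotransferase *Sult2a2* read 14.34 on replicate 3 and 7.68 to 7.97 elsewhere, and *Cyp2b13* and *A1bg* read 13.82 and 13.41 there, against at most 7.88 and 8.28. These 3 were named after their values were seen.

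**Figure D4:**
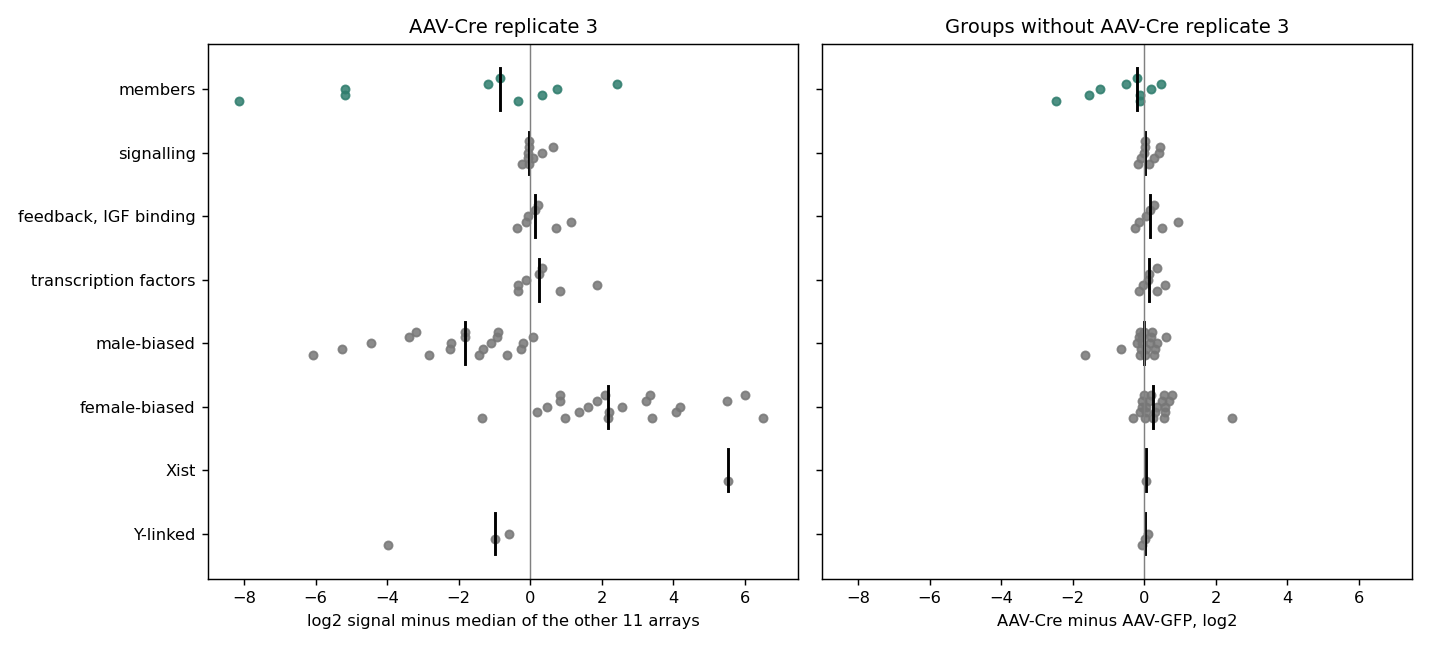
Left, log2 signal of AAV-Cre replicate 3 minus the median of the other 11 arrays. Right, AAV-Cre minus AAV-GFP in log2 units without that array. Each point is a gene (most intense probe), bars are list medians, and lists are the members, pathway groups, sex-biased genes, *Xist* and Y-linked genes. On the left, male-biased genes centre at -1.82 and female-biased genes at 2.18, and on the right their medians are 0.00 and 0.25.

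Acute phase proteins, whose induction in liver accompanies resistance to growth hormone, were counted beside the members. Of 16 listed, 13 were measured and 0 called, with 8 above 0 and 5 below. Their median difference was 0.37, and 0.26 without AAV-Cre replicate 3. *Hp* (haptoglobin) differed by 0.48 (SE 0.13, adjusted p = 0.387), *Itih3* by 0.37 (SE 0.12, adjusted p = 0.591), *Lcn2* by 1.17 (SE 0.39, adjusted p = 0.638) and *Orm2* by 0.43 (SE 0.24). Their part in the member values was not tested. Among markers of other cell types 0 were called. Median differences were -0.01 for 8 endothelial genes and -0.04 for 7 macrophage genes, but 0.22 for 2 bile duct genes (0.32 without AAV-Cre replicate 3) and 0.97 for 5 erythroid genes (0.46 without it), and their part in the member values was not tested.

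The genes whose values over the 12 arrays were most like those of *Hsd3b5* were *Vcl*, *Ahnak*, *Nudt7*, *C9* and *Magee1*, at Pearson correlations of 0.93 to 0.90, and 0.79 to 0.86 over the 11 arrays without AAV-Cre replicate 3. Those most like *Igf1* were *Dio1*, which activates thyroid hormone and correlated at 0.93 (0.89 over 11 arrays), *Fbxl5*, *H2al1e*, *Tbkbp1* and *Cyp2b9* (0.87, and 0.80 over 11). These are descriptions over arrays that share their groups, and were picked as the highest of all named genes. The *Nudt7* probe most like *Hsd3b5* was a less intense one than the probe described above. It read 9.31 on AAV-Cre replicate 3 and 9.98 to 11.41 on the other arrays.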

How the data were processed

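The authors amplified and biotin-labelled total RNA of hepatocytes, hybridised it to Illumina MouseWG-6 v2 arrays and exported from GenomeStudio (version not given in the sources used here) a linear signal intensity, with the background left in, and detection p-values, for 45281 probes. A second table deposited by the authors holds quantile-normalized intensity values of 19627 probes. Here the exported signal was quantile-normalized and turned to log2, and probes with a detection p over 0.05 on every array were left out, leaving 20561. The remaining background shrinks the folds of dim probes. Probes were named through the platform annotation (in the value table, 16568 probes with 1 symbol, 10 with several, 3049 with none), and 934 kept probes are absent from that table, so 3993 kept probes have no single gene name.

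Groups were compared with limma 3.58.1 (R 4.3.3, two-sided), and p-values were adjusted by Benjamini-Hochberg over the kept probes. limma took the place of the study's SAM, which permutes sample labels. Exact two-sided permutation tests used all 924 assignments of the arrays, or 462 without AAV-Cre replicate 3, and 0.00216 is the smallest p of both. A probe not detected on an array has only a bound there, taken at that array's lowest detected signal. The number of arrays limits the precision. The script was tested on simulated data. Members and gene lists were chosen with earlier results of these data known. Named were all members, called genes and up to 4 genes of lowest p in each list, the sex-linked genes, the floxed genes and, for *Hsd3b5* and *Igf1*, the 5 genes most alike. Alternatives were a replicate block, normexp background correction (offset 16), median scaling, the authors' value table, detection on 6 or more arrays, no filter, and leaving out each array.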

Additional observations from a re-analysis of the deposited data

Results flagged for a closer look

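In groups of 6 arrays, a reading was singled out where its gap to the nearest other array took up more of the group's range than Dixon's 95% limit allows. Chance singles out about 1 in 20 groups, and 72 groups were looked at. The AAV-Cre group was left out for the members and for the genes named after their values were seen, because the reading of AAV-Cre replicate 3 had a part in choosing them. AAV-Cre replicate 3 was low in this way for *Eif2s3y* (7.75) and *Uty* (7.92), and high for *Xist* (13.31) and the more intense *Cux2* probe (9.88). The lists holding these genes were also chosen with earlier results of these data known, so these readings are descriptions only. AAV-Cre replicate 2 was high for *Socs3* (11.95) and *Stat3* (12.89), and AAV-GFP replicate 4 was high for *Vldlr* (9.56).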

How the results depend on the processing

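The counts of called member, pathway and male-biased probes were 0 under every alternative run, and the member differences kept their sign except for *Igfals* (0.02), which was -8.17e-04 with the authors' value table and ran from -0.12 to 0.12 when single arrays were left out. Over all probes, 34 were called, against 18 with normexp background correction, 10 with median scaling and 19 to 42 when single arrays were left out, the low end (19 to 22) being reached on omitting replicate 2, 3, 4 or 5 of AAV-GFP, or 6 of AAV-Cre. Of the female-biased probes 1 was called, against 0 with normexp, median scaling or no detection filter and 0 to 1 when single arrays were left out. The replicate numbers were not taken to pair the arrays, because the correlations of deviations ran from -0.20 to 0.40 and 4 of 6, not all, were over 0.1. These correlations do not settle whether the arrays were paired. With the replicate number as a block, 20 probes in all were called and *Cyp2b9* was not, leaving 0 female-biased calls. The block lowered the SE of *Hsd3b5* from 0.75 to 0.50 (limma adjusted p = 0.245) and that of *Selenbp2* from 0.41 to 0.29 (limma adjusted p = 0.186). It raised the SE of the second *Igf1* probe from 0.08 to 0.10. Member probes with an exact p under 0.05 numbered 8, and 5 with median scaling, chosen after seeing the data. The median deviation of AAV-Cre replicate 3 over the 4 enzyme and binding protein probes was -5.18, and -6.67 with normexp. Causes were not tested. Probes at background on an array give only bounds, and the 6 arrays per group cannot separate small differences from array spread.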
